A study of Mus musculus with 4 samples.

Results

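Vwf, F8, Thbd, Procr, Tfpi, Plat, F2r, Thbs1 and Entpd1 are genes through which vessel walls promote, restrain or dissolve blood clots. These 9 genes were taken by symbol from the 32285 genes counted in single-cell RNA sequencing of mouse lung. Their unique molecular identifiers (UMIs, tags that let each captured RNA molecule be counted once) were summed over endothelial cells. A cell counted as endothelial with at least 500 genes detected, at most 10% mitochondrial UMIs, at least 2 UMIs over Pecam1, Cdh5, Cldn5, Egfl7, Ramp2 and Tie1, and 0 UMIs of Ptprc, Epcam, Col1a1 and Col1a2. Of 34683 barcodes, 14854 met this rule.

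The study compared lung endothelium at rest and during regrowth after PNX, the usual abbreviation of pneumonectomy (surgical removal of part of the lung). There were 4 libraries, 1 per group: wild-type mice after a sham operation (sham), wild-type mice (WT PNX), and 2 conditional knockouts named M3cKO PNX and Foxo1cKO PNX, the last 3 groups sampled on day 7 after PNX. All cells came from collagenase-digested lungs after bead removal of CD45-positive cells and bead capture of CD31-positive cells. No day of sampling is recorded for sham. The gene behind M3, the drivers of the knockouts, the strain, age and sex of the animals and their number are not in the labels or files read here. With 1 library per group there is no spread between animals and no test. Every interval below is a 95% interval of counting error alone, which does not cover differences between animals, operations or library preparations.

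Endothelium carries most of the controls on clotting. Thrombin bound to thrombomodulin (Thbd) activates protein C, a step helped by the endothelial protein C receptor (Procr), and tissue factor pathway inhibitor (Tfpi) blocks the start of the cascade. Von Willebrand factor (Vwf) holds platelets to the wall and carries factor VIII (F8), tissue plasminogen activator (Plat) turns plasminogen into clot-dissolving plasmin, protease-activated receptor 1 (F2r) senses thrombin, thrombospondin 1 (Thbs1) is a matrix and platelet granule protein, and the ectonucleotidase CD39 (Entpd1) removes ATP and ADP that activate platelets.

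In GRCm38 (mm10) coordinates of GENCODE vM21, 4 of the 9 genes lie on chromosome 2: Tfpi at chr2:84432855-84476775 on the minus strand, Thbs1 at chr2:118111876-118127133 on the plus strand, Thbd at chr2:148404466-148408188 on the minus strand and Procr at chr2:155751117-155755471 on the plus strand. The others are Vwf at chr6:125546774-125686679 (plus), Plat at chr8:22757727-22782844 (plus), F2r at chr13:95601803-95618487 (minus), Entpd1 at chr19:40612366-40741602 (plus) and F8 at chrX:75172715-75382615 (minus). Exons of Thbs1 overlap those of Gm29233 on the opposite strand, and whether strand was used in counting is not given in the sources used here. Promoters of 5 of the 9 genes (Entpd1, F2r, F8, Procr, Tfpi) were matched in the RefSeq table of GRCm38.p6. The promoter of Procr is shown because Procr had the largest ratio of the 9 between WT PNX and sham. The RefSeq table's window of 250 bases before its start site ends at base 155751216, which is 100 bases past the GENCODE start given above. Shown are the 150 bases before that GENCODE start, chr2:155750967-155751116 on the plus strand, with a CACCC box and an AP-1 motif (TGACTCA) in capitals.
Procr: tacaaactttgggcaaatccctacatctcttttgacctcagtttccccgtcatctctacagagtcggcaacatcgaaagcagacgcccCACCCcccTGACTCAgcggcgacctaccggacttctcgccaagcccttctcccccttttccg
Both strands were searched, and the motifs do not overlap. TGACTCA occurred in 4.46% of 32851 RefSeq windows of 250 bases and CACCC in 52.0%. The F2r window also held 1 TGACTCA. The letters TGTTTAC, a FOXO motif found in 3.17% of all windows, were in none of the windows matched to the 5 genes. These are matches of letters and not measured binding.

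The libraries held 16197681 UMIs in sham and 26848160 to 30445999 in the others. The endothelial rule kept 4665 cells with 10493693 UMIs in sham, 3887 cells with 13691550 UMIs in WT PNX, 2491 cells with 6492399 UMIs in M3cKO PNX and 3811 cells with 12346381 UMIs in Foxo1cKO PNX. Levels are CPM, counts per 1000000 UMIs of that sum, and 3 UMIs equal 0.219 to 0.462 CPM. Foxo1 stood at 70.1 CPM in Foxo1cKO PNX and at 185 to 208 CPM in the other 3 libraries. Cdh5, a defining endothelial gene, ranged from 2121 to 2515 CPM. Xist, expressed in female cells, was at 0 in sham and M3cKO PNX and at 132 and 154 CPM in WT PNX and Foxo1cKO PNX, so the comparisons of WT PNX with sham and with M3cKO PNX also set a mixture of sexes against male-type cells. Between 11 and 28 endothelial barcodes were shared by each pair of libraries. The stress gene Hspa1b stood at 1356 CPM in M3cKO PNX and at 138 to 446 CPM in the others. Cells with a UMI of the platelet genes Pf4 or Ppbp made up 13.6% of endothelial-rule cells in WT PNX, 5.75% in Foxo1cKO PNX, 2.64% in sham and 2.45% in M3cKO PNX. The part of sex, stress and platelet RNA in the results was not tested except where a value without those cells is given.

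The adhesive proteins come first. Vwf was at 1302 CPM in sham (1280 to 1324), 1738 CPM in WT PNX (1716 to 1761), 1179 CPM in M3cKO PNX (1153 to 1206) and 1547 CPM in Foxo1cKO PNX (1525 to 1569). WT PNX was the highest and M3cKO PNX the lowest, and no intervals overlapped. F8, the clotting factor that Vwf carries, was sparse: 91 UMIs in sham (8.67 CPM, 6.98 to 10.6), 83 UMIs in WT PNX (6.06 CPM, 4.83 to 7.51), 15 UMIs in M3cKO PNX (2.31 CPM, 1.29 to 3.81) and 47 UMIs in Foxo1cKO PNX (3.81 CPM, 2.80 to 5.06). F8 was highest in sham, and it stayed under the 10 CPM that a gene had to reach in 1 of the compared libraries to be counted as measured.

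The brakes on thrombin did not share one order of libraries. Thbd was at 2851 CPM in sham (2819 to 2884), 2344 CPM in WT PNX (2318 to 2370), 3389 CPM in M3cKO PNX (3344 to 3434) and 2235 CPM in Foxo1cKO PNX (2209 to 2262). It was highest in M3cKO PNX and lowest in Foxo1cKO PNX, with intervals apart. Procr was at 8.20 CPM in sham (6.56 to 10.1), 30.7 CPM in WT PNX (27.9 to 33.8), 19.1 CPM in M3cKO PNX (15.9 to 22.8) and 25.1 CPM in Foxo1cKO PNX (22.4 to 28.1). Sham lay under each of the 3 PNX libraries. Tfpi was at 58.8 CPM in sham (54.2 to 63.6), 75.7 CPM in WT PNX (71.2 to 80.5), 53.0 CPM in M3cKO PNX (47.5 to 58.9) and 67.3 CPM in Foxo1cKO PNX (62.8 to 72.0). Its intervals overlapped between sham and M3cKO PNX, between sham and Foxo1cKO PNX and between WT PNX and Foxo1cKO PNX.

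Plat, the activator of fibrinolysis, stood apart in one library. It was at 109 CPM in sham (103 to 116), 126 CPM in WT PNX (120.0 to 132), 445 CPM in M3cKO PNX (429 to 462) and 114 CPM in Foxo1cKO PNX (108 to 120.5). The M3cKO PNX level lay far above the other 3, which ran from 109 to 126 CPM.

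F2r varied least. It was at 102 CPM in sham (95.8 to 108), 115 CPM in WT PNX (109 to 120.4), 119 CPM in M3cKO PNX (111 to 127) and 131 CPM in Foxo1cKO PNX (125 to 138), with overlapping intervals between WT PNX and M3cKO PNX and between M3cKO PNX and Foxo1cKO PNX. Thbs1 was at 41.1 CPM in sham (37.3 to 45.1), 112 CPM in WT PNX (107 to 118), 88.9 CPM in M3cKO PNX (81.8 to 96.4) and 81.6 CPM in Foxo1cKO PNX (76.6 to 86.8). Sham was lowest and WT PNX highest, and the 2 knockout libraries overlapped. Entpd1 was at 128 CPM in sham (121 to 135), 183 CPM in WT PNX (176 to 190.1), 240.3 CPM in M3cKO PNX (229 to 253) and 162 CPM in Foxo1cKO PNX (155 to 169), highest in M3cKO PNX and lowest in sham.

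**Figure D1:**
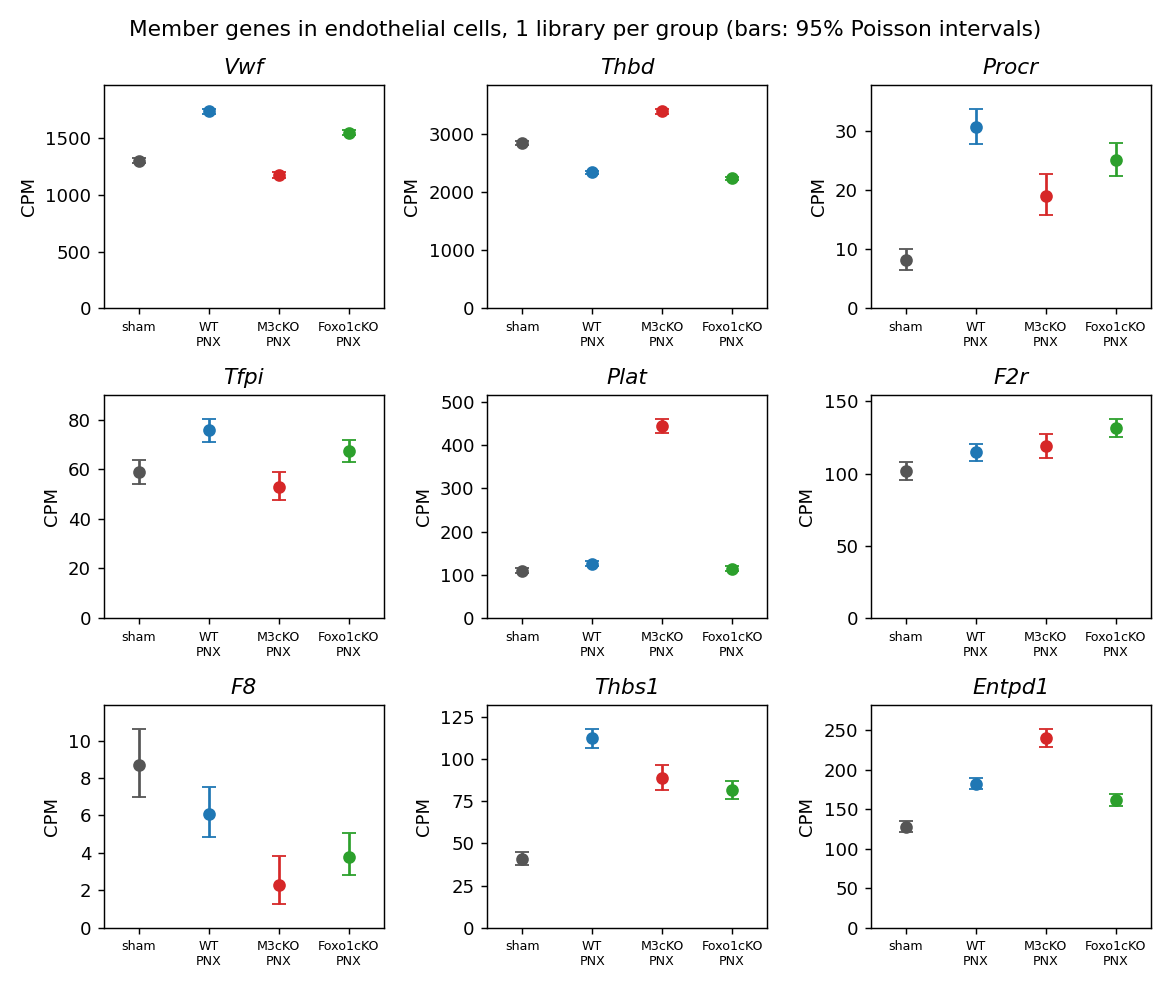
Level of each of the 9 genes in endothelial cells (vertical axis, CPM from 0, a separate scale for each gene) in the 4 libraries; bars are exact Poisson 95% intervals of the count. Plat stands at 445 CPM in M3cKO PNX against 109 to 126 in the others, and Procr at 8.20 CPM in sham against 19.1 to 30.7.

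What differs on day 7 after PNX is asked by setting WT PNX against sham, for which no day after its operation is recorded. A gene was called at a ratio of 1.5 or more with the higher library at 10 CPM or more, a rule of size and not a test. Procr was 3.75-fold higher in WT PNX (2.97 to 4.79) and Thbs1 2.74-fold (2.46 to 3.05). These were 2 of 8 measured members called higher, and 0 were called lower. Of all 9132 genes measured, 11.3% were called higher and 6.98% lower, or 18.3% in either direction. The median log2 ratio, with 5 CPM added to each level, was 0.38 over the 8 members and 0.04 over all measured genes. Entpd1 had a ratio of 1.43 (1.34 to 1.53), Vwf 1.34 (1.31 to 1.36) and Thbd 0.822 (0.809 to 0.835). When the classes of each library were weighted to those of WT PNX, Vwf turned to a ratio of 0.933, Procr was 2.45-fold and Thbs1 1.74-fold higher. This weighting kept clusters with at least 10 cells in every library. It thus also left out smaller clusters, among them a platelet-like cluster described below (8 cells in sham). Thbs1 in WT PNX was then at 91.0 CPM against 112 in the main sum. In male-type cells alone (with Y-linked and without Xist UMIs), Procr was 4.72-fold and Thbs1 1.95-fold higher, and Entpd1 passed the fold at 1.59.

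M3cKO PNX against WT PNX asks what the M3 knockout changes after surgery, and this comparison and the next share the WT PNX library with the first. Plat was 3.53-fold higher (3.32 to 3.75), and Procr was 1.61-fold lower (1.31 to 1.98). These were 1 of 8 members called higher and 1 called lower, beside 6.37% higher and 14.4% lower of all 9089 genes, or 20.7% either way. At 2-fold only Plat passed, beside 7.87% of all genes. The median log2 ratio was -0.14 over the members and -0.13 over all genes, with members on both sides of 0. Scaling by the trimmed mean of M values (TMM) moved the median of all genes to -0.01, and Thbd then passed the fold at 1.58 against 1.45 (1.42 to 1.47) in plain CPM, while Procr at 1.47-fold lower missed it. Vwf was 1.47-fold lower (1.44 to 1.51), Tfpi 1.43-fold lower (1.26 to 1.62) and Entpd1 1.31-fold higher (1.23 to 1.40).

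Plat kept its call in M3cKO PNX against WT PNX under each of the 19 alternatives, with log2 ratios from 1.63 to 2.51. Of these, a change in the CPM added before taking logs and the lack of a low-count filter could not have removed it. In male-type cells alone the levels were 398 and 123 CPM (3.23-fold), and without stress state-like cells they were 404 and 127 CPM (3.19-fold). Procr lost its call when classes were weighted to WT PNX (1.37-fold lower) and when cells were thinned to 2000 UMIs (1.21-fold lower).

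In Foxo1cKO PNX against WT PNX, 0 of the 8 measured members were called, beside 2.49% of 9052 genes (1.09% higher and 1.39% lower). Their ratios ran from 0.726 for Thbs1 (0.670 to 0.786) to 1.15 for F2r (1.07 to 1.23), with Vwf at 0.890 (0.873 to 0.907), Thbd at 0.954 (0.938 to 0.969), Procr at 0.817 (0.703 to 0.948) and Plat at 0.907 (0.845 to 0.974). The median log2 ratio was -0.16 over the members and -0.01 over all genes. In male-type cells alone Vwf was at 1.23 and Thbs1 at 1.03, so that the direction of both depended on which cells were summed.

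Shares of cells gave the same picture for Plat. After thinning each cell to 1000 UMIs, 25.2% of M3cKO PNX endothelial cells held a Plat UMI (23.5 to 27.1), against 8.40% in sham (7.61 to 9.26), 8.98% in WT PNX (8.08 to 9.94) and 8.51% in Foxo1cKO PNX (7.62 to 9.47). The unthinned shares were 38.5%, 14.2%, 20.4% and 17.0% in the same order, and thinning left out 261 cells of M3cKO PNX and 146 to 205 of the others. B cells, which should lack Plat, held a UMI in 0.851% of cells in M3cKO PNX (2 of 235), and in 0 of 462 in WT PNX, at median depths of 1904 and 1770 UMIs against 2070 and 2640 in endothelium. Endothelial shares thus lay well above this background. Thbd was found in 84.7% of thinned endothelial cells in sham and 78.3%, 85.7% and 77.4% in WT PNX, M3cKO PNX and Foxo1cKO PNX, and in 0.851% to 7.14% of B cells. Procr was found in 0.628% of thinned sham cells (0.417 to 0.906), 1.92% of WT PNX cells (1.51 to 2.42), 1.26% of M3cKO PNX cells (0.836 to 1.81) and 1.69% of Foxo1cKO PNX cells (1.30 to 2.17).

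Endothelial cells were clustered without the listed genes among the variable genes, and clusters were named from marker lists. There were 7 classes with at least 50 cells in every library: general capillary-like, aerocyte-like (the flat gas-exchange capillary cell), venous-like, arterial-like, stress state-like, interferon state-like, and an unnamed cluster led by Ntrk2, Cdk19 and Slc6a6 (cluster 1), in which general capillary and arterial markers tied at 4 each. The means below are over the 4 libraries, which are different conditions.

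Among the classes compared, Vwf and Procr were highest in venous-like cells and next highest in arterial-like cells. Vwf averaged 7988 ± 923 CPM (SD, n = 4) in venous-like and 4089 ± 327 in arterial-like cells, 296 to 351 in 4 other classes and 93.4 ± 29.7 in aerocyte-like cells. Of all Vwf UMIs, 64.9% to 67.8% lay in venous-like cells of the 4 libraries. Procr averaged 97.6 ± 29.5 CPM in venous-like and 18.8 ± 5.44 in arterial-like cells, and 3.87 or less in the other 5 classes, where single libraries held few UMIs. The unnamed cluster led by Fabp4, Tagln, Igfbp3 and Selp (cluster 12) also held Procr, at 82.7 CPM in sham. Its level there was 238, 0 and 109 CPM in WT PNX, M3cKO PNX and Foxo1cKO PNX, with only 11 cells in M3cKO PNX. The venous-like levels were 53.5 CPM in sham and 116, 110 and 111 CPM in the same order. Cluster 12 held 10.5% of the Procr UMIs in sham and 27.6%, 0% and 22.6% in WT PNX, M3cKO PNX and Foxo1cKO PNX. Venous-like cells made up 8.04% of endothelial cells in sham and 11.2%, 9.19% and 11.5% in the 3 PNX libraries in that order.

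Thbd and Tfpi were spread over 6 classes and lowest in arterial-like cells, and Entpd1 was highest in venous-like and lowest in aerocyte-like cells. Thbd averaged 3093 to 3462 CPM in 6 classes, whose SDs of 228 to 871 overlapped, and 1760 ± 828 in arterial-like cells. Tfpi averaged 66.1 to 75.3 CPM in 6 classes, with SDs over the 4 conditions that overlapped, and 32.6 ± 6.08 in arterial-like cells. Entpd1 was at 338 ± 111 CPM in venous-like cells, at 194 to 220.3 in 5 classes and lowest in aerocyte-like cells at 43.5 ± 14.6.

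Among the 7 classes, Plat led in arterial-like and F2r in aerocyte-like cells. In arterial-like cells Plat was at 678 CPM in sham, 822 CPM in WT PNX, 2193 CPM in M3cKO PNX and 753 CPM in Foxo1cKO PNX, and in venous-like cells at 15.1, 23.5, 77.4 and 17.4 CPM. The arterial-like class was thus above the venous-like class in each of the 4 libraries. F2r averaged 218 ± 82.3 CPM in aerocyte-like cells and 99.1 ± 6.32 in arterial-like cells, and 47.1 to 75.8 in the other 5 classes. It was lower in venous-like than in general capillary-like cells of each library, at 26.3 against 63.9 CPM in sham, 62.8 against 66.1 CPM in WT PNX, 28.5 against 67.2 CPM in M3cKO PNX and 70.7 against 77.9 CPM in Foxo1cKO PNX. Outside the 7 classes F2r was above its aerocyte-like level in each library but M3cKO PNX: systemic-type-like cells held it at 402, 250.1, 277 and 248 CPM and lymphatic-like cells at 344, 257, 133 and 333 CPM in the same order of libraries, against 153, 201, 338 and 180.2 CPM in aerocyte-like cells.

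**Figure D2:**
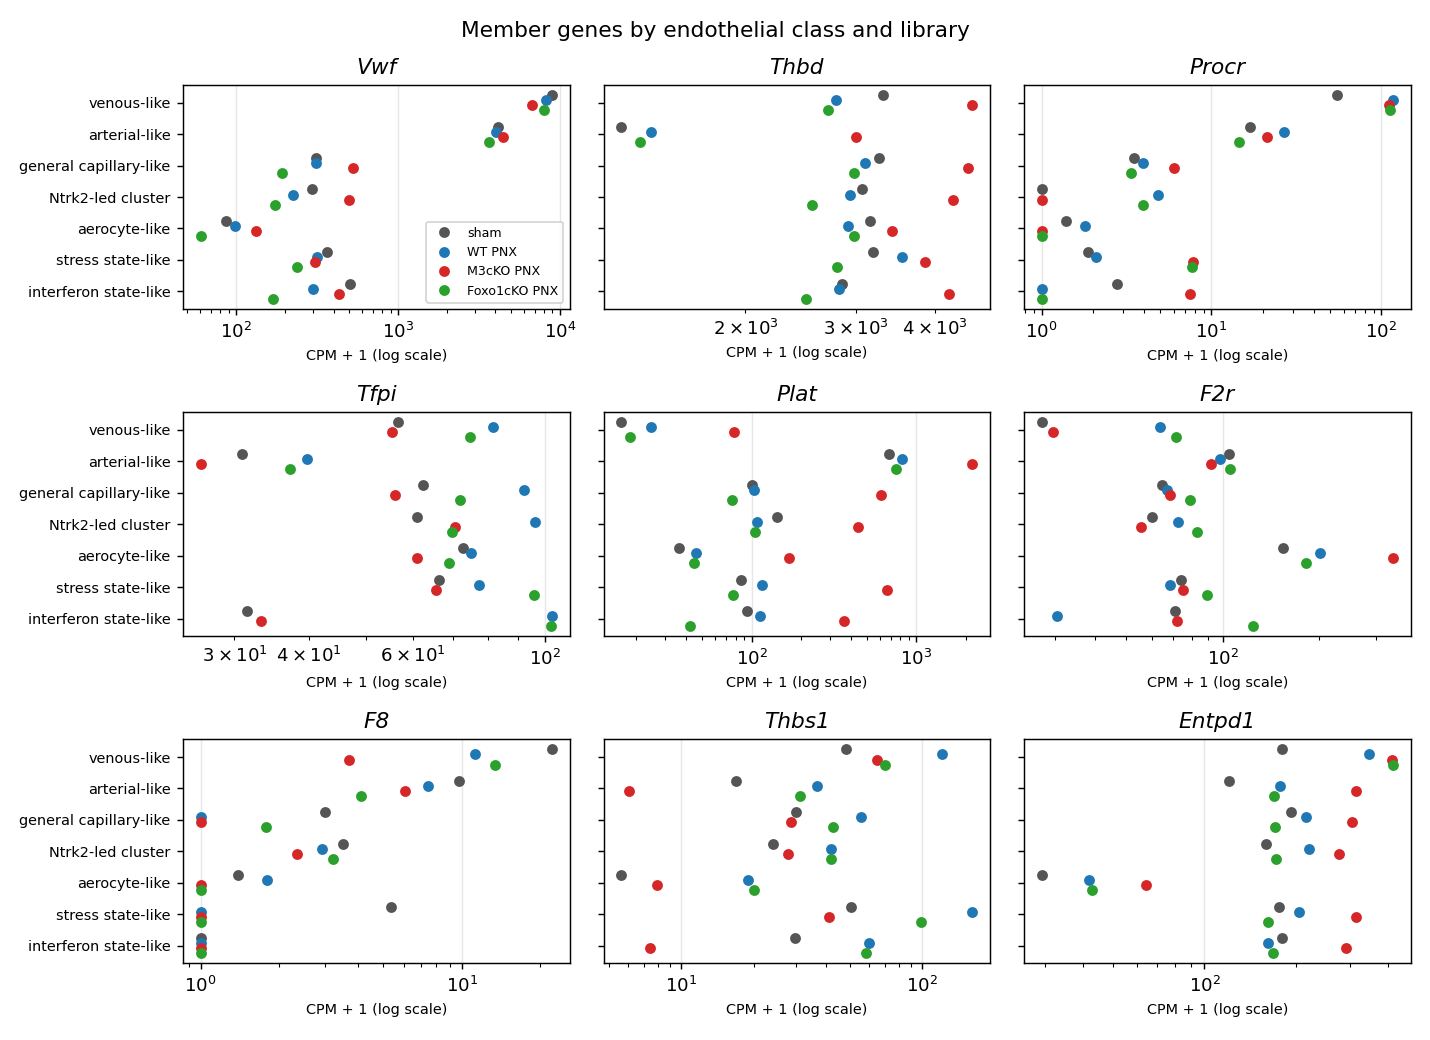
Level of each gene (log axis, CPM) in the 7 endothelial classes, 1 point per library. Vwf and Procr are highest in venous-like cells in every library, Plat in arterial-like cells and F2r in aerocyte-like cells, among the 7 classes plotted.

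The highest F8 level was in lymphatic-like cells, a class with 163 cells in sham and 70, 38 and 69 in the 3 PNX libraries (WT, M3cKO, Foxo1cKO) and so outside the 7 compared. Its level there was 125 CPM in sham and 120.1, 56.5 and 44.9 CPM after PNX. Lymphatic-like cells held 52.7% of the F8 UMIs in sham, and after PNX 43.4% in WT, 73.3% in M3cKO (11 of 15 UMIs) and 21.3% in Foxo1cKO. Venous-like cells held 23.1%, 24.1%, 13.3% and 42.6%, more than the lymphatic-like cells in Foxo1cKO PNX. Entpd1 was at 0 to 8.99 CPM in lymphatic-like cells.

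Within classes, Plat was called higher in M3cKO PNX, against WT PNX, in 7 of 7. The share of all genes called higher there was 8.67% in general capillary-like, 8.96% in aerocyte-like, 10.1% in cluster 1, 10.5% in stress state-like, 11.5% in venous-like, 18.9% in arterial-like and 21.5% in interferon state-like cells. In general capillary-like cells Plat was at 609 against 103 CPM (5.91-fold, 4.92 to 7.13). The fold was 5.77 in stress state-like cells (4.69 to 7.16), 4.14 in cluster 1 (3.43 to 5.02), 3.75 in aerocyte-like cells (2.91 to 4.84), 3.29 in venous-like cells (2.19 to 4.97), 3.24 in interferon state-like cells (2.08 to 5.11) and 2.67 in arterial-like cells (2.37 to 3.01). The interval of the general capillary-like fold lay above that of the arterial-like fold.

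**Figure D3:**
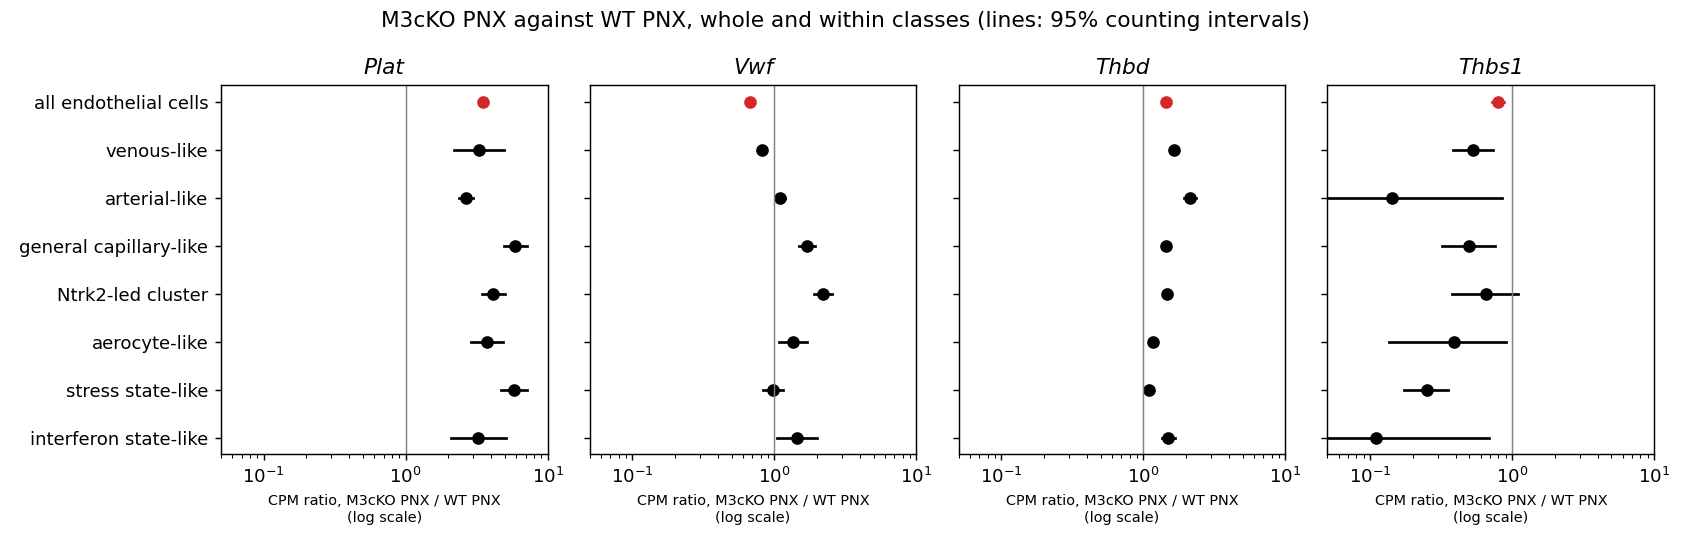
Ratio of M3cKO PNX to WT PNX (log axis) for Plat, Vwf, Thbd and Thbs1 in all endothelial cells (red) and in each class (black). Lines are exact conditional binomial 95% intervals of the counts, and those that reach below 0.05 run off the axis. All 7 class ratios of Plat lie above 1.5, from 2.67 to 5.91.

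Vwf showed different directions by class in that comparison. It was higher in M3cKO PNX in general capillary-like cells (526 against 310.3 CPM, 1.70-fold, 1.497 to 1.92) and in cluster 1 (494 against 224 CPM, 2.21-fold, 1.90 to 2.56), and lower in venous-like cells at 6740 against 8221 CPM (ratio 0.820, 0.794 to 0.846). Arterial-like cells were 3.05% of endothelial cells in M3cKO PNX and 6.77% in WT PNX, and venous-like cells 9.19% and 11.2%. With classes weighted to WT PNX the ratio was 0.857. Thbd was called higher in venous-like cells (1.65-fold, 1.58 to 1.72) and arterial-like cells (2.12-fold, 1.92 to 2.33) and was at a ratio of 1.46 in general capillary-like cells. Procr did not differ in venous-like cells beyond counting error (110.0 against 116 CPM, ratio 0.948, 0.727 to 1.23).

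In WT PNX against sham, venous-like cells held the most called members: 5 of 9 measured were higher and 1 lower, beside 14.4% higher and 12.9% lower of 8913 genes. Procr was at 116 against 53.5 CPM (2.17-fold, 1.60 to 2.98), Thbs1 at 119.5 against 47.5 (2.52-fold, 1.83 to 3.52), F2r at 62.8 against 26.3 (2.39-fold, 1.56 to 3.81) and Entpd1 at 345 against 179 (1.93-fold, 1.64 to 2.29). For Plat the interval reached below 1 (1.55-fold, 0.851 to 2.99). F8 was 2.08-fold lower (1.07 to 4.04), with 20 UMIs in 435 cells against 21 in 375. In interferon state-like cells 2 of 7 measured members were higher and 2 lower, beside 20.3% higher and 19.5% lower of all genes. Vwf within classes did not follow its sum: its level was 8221 against 8959 CPM in venous-like cells and 310.3 against 311 CPM in general capillary-like cells.

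Against sham, Thbs1 was called higher in WT PNX in 7 of 7 classes, beside 14.1% of genes in general capillary-like, 9.54% in aerocyte-like, 12.4% in cluster 1, 14.4% in stress state-like and in venous-like, 16.9% in arterial-like and 20.3% in interferon state-like cells. The ratios ran from 1.77 in cluster 1 (1.16 to 2.73) to 3.86 in aerocyte-like cells (2.01 to 8.01), with an interval that included 1 in interferon state-like cells (2.06-fold, 0.991 to 4.32). The platelet gene Pf4 moved the same way inside these classes: it was at 4.49 CPM in sham, 35.6 CPM in WT PNX and 3.32 CPM in M3cKO PNX in general capillary-like cells, at 13.1, 37.1 and 4.88 CPM in stress state-like cells and at 10.1, 28.1 and 0 CPM in venous-like cells. Without cells holding a Pf4 or Ppbp UMI, an alternative chosen after seeing the data, Thbs1 was still called higher in 7 of 7 classes, from 1.86-fold in cluster 1 (1.172 to 3.001) to 3.63-fold in aerocyte-like cells (1.797 to 7.945). Against WT PNX, it was called lower in M3cKO PNX in 7 of 7 classes, while its sum over all cells was 1.26-fold lower (1.15 to 1.39). The share of all genes called lower in those classes was larger than the 14.4% over all cells: 21.6% in general capillary-like, 17.9% in aerocyte-like, 18.9% in cluster 1, 22.8% in stress state-like, 23.2% in venous-like, 26.5% in arterial-like and 30.8% in interferon state-like cells. In general capillary-like cells it was at 27.4 against 54.9 CPM and in stress state-like cells at 40.0 against 161 CPM, 4.01-fold lower (2.82 to 5.82). The counts were small elsewhere, with 1 UMI in arterial-like and 1 in interferon state-like cells of M3cKO PNX, and the interval included 1 in cluster 1 (1.53-fold lower, 0.912 to 2.67). Without cells holding a Pf4 or Ppbp UMI it was called lower in 6 of 7 classes, with cluster 1 at 1.43-fold lower (0.834 to 2.53) under the fold.

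**Figure D4:**
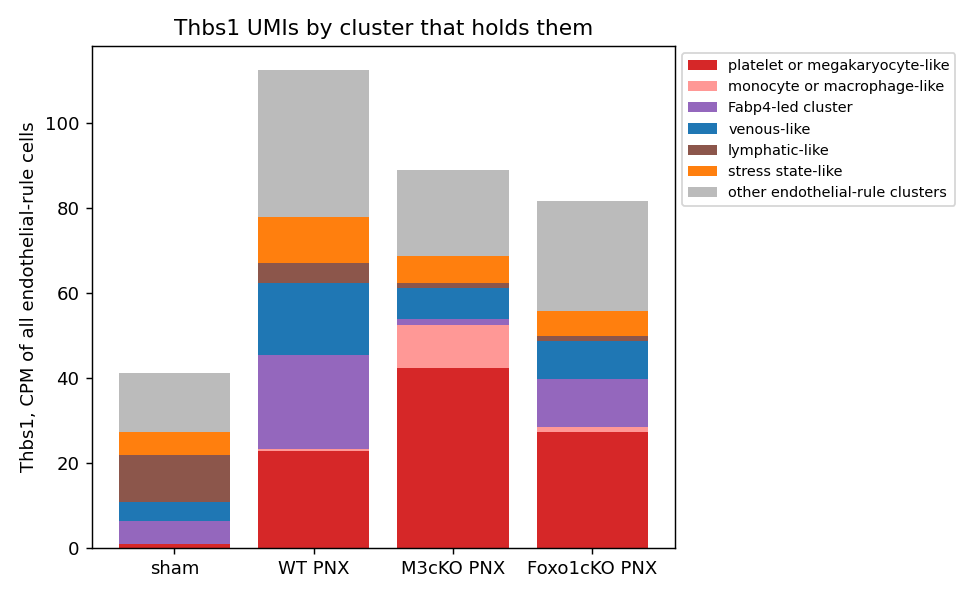
Thbs1 level of each library (vertical axis, CPM of all endothelial-rule cells) as a bar split by the cluster that holds the UMIs. Platelet-like, monocyte or macrophage-like, Fabp4-led, venous-like, lymphatic-like and stress state-like clusters are drawn apart, and all other clusters are pooled. Levels within classes are not plotted. In each of the 7 classes, WT PNX was above sham and above M3cKO PNX for Thbs1 and for the platelet gene Pf4.

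In Foxo1cKO PNX against WT PNX, 8 lower calls and 1 higher call were made within classes, and 0 over all cells. Vwf was lower in general capillary-like cells (191 against 310.3 CPM, 1.62-fold, 1.38 to 1.91, beside 6.45% of genes), aerocyte-like cells (59.4 against 97.1 CPM, 1.64-fold, 1.34 to 2.01, beside 3.65%) and interferon state-like cells (1.79-fold, 1.28 to 2.52, beside 16.5%). Thbs1 was lower in venous-like cells (68.8 against 119.5 CPM, 1.74-fold, 1.38 to 2.20, beside 5.91%) and stress state-like cells (1.65-fold, 1.24 to 2.21, beside 9.6%). Without cells holding a Pf4 or Ppbp UMI the venous-like call of Thbs1 was lost at 1.46-fold lower (1.13 to 1.88). Plat was lower in interferon state-like cells (41.0 against 112 CPM, 2.72-fold, 1.44 to 5.37) and stress state-like cells (1.51-fold, 1.08 to 2.12). Procr was lower in arterial-like cells, from 13 and 24 UMIs, with an interval that included 1 (1.92-fold, 0.939 to 4.11, beside 9.36%). F2r was the call in the other direction, higher in interferon state-like cells (123 against 29.5 CPM, 4.17-fold, 2.01 to 9.70, from 45 and 9 UMIs, beside 19.9%).

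The sum of Thbs1 held RNA of platelet-like cells. A cluster of 8 cells in sham and 82, 18 and 40 in the PNX libraries (WT, M3cKO, Foxo1cKO) that met the endothelial rule was led by platelet genes. It held 1.86%, 20.2%, 47.7% and 33.3% of the Thbs1 UMIs, at 526, 1189, 5266 and 2337 CPM. Without clusters of other cell types, an alternative chosen after seeing the data, Thbs1 was at 41.4, 92.7, 36.9 and 56.0 CPM. WT PNX was then 2.24-fold above sham, and M3cKO PNX lay 2.51-fold and Foxo1cKO PNX 1.66-fold under WT PNX. Without cells holding a Pf4 or Ppbp UMI these values were 2.10-fold above, 1.88-fold under and 1.52-fold under. At most 5% mitochondrial UMIs, which kept 987, 816, 607 and 867 cells in the order above, gave 216 against 195 CPM in M3cKO PNX and WT PNX. The platelet-like cluster held at most 1.04% of the Plat UMIs and 1.03% of the Vwf UMIs in any library.

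Platelet markers moved with the first comparison. The 12 markers summed to 81.1 CPM in sham, 843 CPM in WT PNX, 617 CPM in M3cKO PNX and 639 CPM in Foxo1cKO PNX, with 0 of them absent from any library. Of the 12 markers, 7 were measured and all 7 were called higher in WT PNX, with a median log2 ratio of 2.31. Pf4 (platelet factor 4) was at 174 against 10.8 CPM (16.2-fold, 13.4 to 19.7), Ppbp at 238 against 22.1, Nrgn at 319 against 35.7 and Treml1 at 26.5 against 1.33. Against WT PNX, 3 of 8 were lower in M3cKO PNX (Pf4 at 92.6, Nrgn at 119 and Clec1b at 18.6 against 28.9 CPM) and 0 higher. In Foxo1cKO PNX, 1 of 7 was lower (Nrgn, at 189 CPM). Cells outside the endothelium carried several of the members too. Cells that failed the endothelial rule and carried platelet markers held Thbs1 at 2418 CPM in sham, 3342 CPM in WT PNX, 6210 CPM in M3cKO PNX and 3915 CPM in Foxo1cKO PNX. Fibroblasts held it at 1127, 2996, 3874 and 2476 CPM, neutrophils at 0 (1 cell), 559, 2753 and 1038 CPM and monocytes or macrophages at 29.5, 1157, 1195 and 643 CPM in the same order. Pericytes or smooth muscle cells held F2r at 178 to 2591 CPM, from 4 to 22 cells a library. B cells, which should lack Vwf, held it at 57.6 CPM in sham, 40.8 CPM in WT PNX, 2.15 CPM in M3cKO PNX and 33.1 CPM in Foxo1cKO PNX, a background to set beside the lowest Vwf levels, those of aerocyte-like cells (86.0, 97.1, 131 and 59.4 CPM).

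Beyond the 9 genes, 50 other genes of haemostasis in 5 lists were counted, of which 19 were measured in each comparison. In WT PNX against sham, 7 were higher and 1 was lower, with a median log2 ratio of 0.18, beside 11.3% higher and 6.98% lower and a median of 0.04 over all genes. Among clotting factors and their processing 1 of 5 measured was higher: F5, the cofactor of activated factor X, at 23.8 against 2.95 CPM (8.06-fold, 5.57 to 12.1). Among inhibitors of coagulation 1 of 4 was higher: Serpine2, an inhibitor of thrombin, at 23.0 against 8.86 CPM. Of 6 measured fibrinolysis genes 2 were higher and 1 lower. Anxa2, a plasminogen receptor, was higher at 548 against 318 CPM (1.72-fold, 1.65 to 1.79). Plaur, the urokinase receptor, was lower at 129 against 202 CPM. Of 4 measured genes in the list of brakes on platelets 3 were higher. They were Ptgis (prostacyclin synthase) at 49.0 against 32.2 CPM and Nos3 (endothelial nitric oxide synthase) at 101 against 67.0. The third was Cd59a, an inhibitor of complement, at 32.2 against 14.2.

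In M3cKO PNX against WT PNX, 4 of the 19 were higher and 3 lower, with a median of -0.17, beside 6.37% higher and 14.4% lower and a median of -0.13 over all genes. Plaur stood at 315 against 129 CPM (2.44-fold, 2.29 to 2.60) and S100a10, the partner of Anxa2, at 544 against 354, so 2 of 6 fibrinolysis genes were higher and 0 lower. Ptgs1 (cyclooxygenase 1) was at 116 against 71.1 CPM and Ptgis at 74.5 against 49.0. Lower were Serpine2 at 6.93 against 23.0 CPM, Cd59a at 10.3 against 32.2, and Ggcx, which carboxylates vitamin K-dependent factors, at 8.47 against 14.0. In Foxo1cKO PNX against WT PNX, 0 of the 19 were called. The other protease-activated receptors F2rl1, F2rl2 and F2rl3 were measured in 0 of 3 cases in each comparison.

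The genes most like each member were found by Pearson correlation of log2(CPM + 5) over 28 sums (7 classes in 4 libraries), among 5446 genes. The sums share libraries and classes, so these values only describe. Vwf was most like Jam2 (0.96), Emp3 (0.96) and Itgb4 (0.95), and Procr most like Foxc1 (0.96), Selp (0.95) and Cpe (0.94), Selp being a venous marker. Plat was most like Alas1 (0.89), Mical2 (0.89) and Msrb3 (0.84), Entpd1 most like Cemip2 (0.91), Foxp1 (0.91) and Ephb4 (0.90), and Thbd most like Carhsp1 (0.87). F2r was most like Meox1 (0.86), F8 most like Gnas (0.87), Thbs1 most like Zfp36l1 (0.87) and Tfpi most like Stim2 (0.78), the weakest of the 9. The F8 value rests on few UMIs, with 21 in venous-like sham cells and 0 in interferon state-like cells of each library. Lymphatic-like cells, where F8 was highest, are not among the 28 sums.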

How the data were processed

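The 4 samples were single-cell libraries of mouse lung cells. For every gene and barcode the authors deposited the UMI count, a whole number with no scaling. Per the labels' protocols, Cell Ranger 2.1.1 was used for mapping to the mm10 genome. The file headers carry software version 3.0.0, and the submitters' processing notes name R 3.4.4. Groups came from the sample titles.

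Endothelial UMIs were added up per library and per class and divided by the total to give CPM. Levels carry exact Poisson intervals, ratios exact conditional binomial ones and shares exact (Clopper-Pearson) ones, all at 95%. Depth was 6492399 to 13691550 endothelial UMIs per library. Classes came from Leiden clustering at resolution 1 (2000 variable genes, 30 principal components, 20 neighbours). Each gene was centred within its library before the components were taken, a step chosen after clustering without it had split capillary cells by library. The listed genes were left out of the variable genes. Naming a cluster took 3 or more markers of 1 class among its 50 leading genes. The classes are rebuilt here and are not the authors' own. No doublet caller was used beyond the exclusion by marker genes, and leaving out the highest Scrublet scores (0.8% per 1000 barcodes) was an alternative.

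The 9 genes are always named. Of each other list, members at 10 CPM or more in a compared library were counted. Up to 4 of them were named, those with the largest log2 ratios after 5 CPM was added to each level. Some list members that met this rule are counted and not reported by name here. For each of the 9, the 3 most similar genes reaching 50 CPM in at least 1 sum were found. The members and lists were chosen with earlier results of these data known. There were 16 alternatives written down with the design (mitochondrial filter, endothelial rule, doublets, depth, scaling, weighting, composition, sex, single cells, platelet RNA, fold, low counts, pseudocount) and 3 added after seeing the data (clusters of other cell types, the stress state class and the venous class each left out). Thbs1 within classes was recomputed without cells holding a Pf4 or Ppbp UMI, also added after seeing the data. The steps were tested on simulated data. Software was Python 3.11.15 (pandas 2.3.3, numpy 2.4.6, leidenalg 0.10.2, scipy 1.17.1, igraph 0.11.9, scanpy 1.11.5, scikit-learn 1.9.0, anndata 0.12.19, matplotlib 3.10.9). TMM factors came from edgeR 4.0.16 under R 4.3.3.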

Additional observations from a re-analysis of the deposited data

Results flagged for a closer look

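F2r, the thrombin receptor, differed in direction between classes in 2 comparisons, by ratios past 1.5-fold on opposite sides in a single pair of libraries. The difference between the classes was not tested. In M3cKO PNX against WT PNX, F2r was 1.69-fold higher in aerocyte-like cells (1.46 to 1.95, 338 against 201 CPM), while in venous-like cells it had a ratio of 0.454 (0.271 to 0.725, 28.5 against 62.8 CPM, from 21 and 123 UMIs). In WT PNX against sham, F2r was 2.39-fold higher in venous-like cells (1.56 to 3.81, 62.8 against 26.3 CPM), while in interferon state-like cells it had a ratio of 0.422 (0.180 to 0.887, 29.5 against 69.9 CPM, from 9 and 39 UMIs).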

How the results depend on the processing

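No paired analysis was possible because each group has 1 library and the labels carry no replicate numbers. For the same reason no library could be left out in turn. Of 513 member ratios under 16 planned and 3 added alternatives, 395 stayed within their counting interval and 118 did not. The 2-fold rule, the 50 CPM filter and the lack of a low-count filter alter calls alone. Their ratios equal the main ones by design and are counted among the 395. The sign changed in 17 of the 513, of which 1 was a called value. It was Procr in M3cKO PNX against WT PNX, at a log2 ratio of 0.32 in general capillary-like cells alone. The others included Vwf in the same comparison and cells (0.75), Thbs1 in that comparison with at most 5% mitochondrial UMIs (0.14), Vwf in WT PNX against sham with classes weighted (-0.10), and, for Foxo1cKO PNX against WT PNX in male-type cells alone, Vwf (0.30), Procr (0.11), Thbs1 (0.04), Entpd1 (0.13) and F2r (-0.12). Of 57 counts of called members, 44 were within 1.5 times the main count. The pseudocount of 1 CPM enters log2 ratios alone, so its counts equal the main ones by design and are among the 44. In WT PNX against sham (2 called) the count was 4 with at most 5% mitochondrial UMIs (23.1% of all genes called, 18.3% in the main analysis), and 1 in general capillary-like cells alone (22.5%) and with a 50 CPM filter (14.1%). In M3cKO PNX against WT PNX (2 called) it was 4 with at most 5% mitochondrial UMIs (27.7%, against 20.7%), in general capillary-like cells alone (30.2%) and without cells with a Pf4 or Ppbp UMI (21%), and 1 with a 2-fold rule (7.87%) and a 50 CPM filter (15.3%). In Foxo1cKO PNX against WT PNX (0 called) it was 1 in general capillary-like cells alone (Vwf, 13.1% against 2.49%), with classes weighted to WT PNX, without cells with a Pf4 or Ppbp UMI and without clusters of other cell types (Thbs1 in these 3, 1.69% to 2.52%), and with no filter on low counts (F8, 28.5%). The cause was not tested. Log2 ratios ranged from 0.09 to 1.79 for Procr and from 0.75 to 1.87 for Thbs1 in WT PNX against sham. Depth limits F8 most: its 15 UMIs in M3cKO PNX give an interval of 1.29 to 3.81 CPM.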

Other observations

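Lymphatic-like cells held other members besides F8. Thbs1 was at 300.0 CPM there in sham, 210.1 CPM in WT PNX, 41.1 CPM in M3cKO PNX and 62.9 CPM in Foxo1cKO PNX, and these cells held 26.7%, 4.09%, 1.39% and 1.39% of each library's Thbs1 UMIs. Thbd was at 798, 594, 411 and 706 CPM in the same order, under its level in each of the 7 larger classes. The M3cKO PNX values rest on 38 cells. Cluster 12 held Thbs1 at 533, 622, 342 and 217 CPM, from 36, 86, 11 and 135 cells.

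In a single cell of M3cKO PNX lay 12.3% of that library's Thbs1 UMIs. Outside the endothelium, Plat in M3cKO PNX was at 2.15 CPM in B cells, 4.34 CPM in T or NK cells, 18.1 CPM in monocytes or macrophages (13.2 to 24.3) and 377 CPM in 49 fibroblasts. The same cells of WT PNX held 1.10, 5.36, 2.25 (0.0569 to 12.5) and 344 CPM.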
